A study of Mus musculus with 9 samples.

Results

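The genes of cholesterol synthesis, sensing, intracellular transport and efflux were examined in the renal cortex of diabetic mice. The 28 genes were taken by their symbols from a list that covers 18 synthesis enzymes, 4 sterol sensors, 2 liver X receptors (LXR), 2 exporters and 2 proteins that move cholesterol inside the cell. All 28 were found among the 21950 genes with mRNA values, and all 28 passed the filter on low values, which 14537 genes passed.

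Total RNA of the renal cortex was sequenced from 9 male mice of 15 weeks on the C57BL/KsJ background (BKS.Cg-Dock7m+/+Leprdb/Nju), with 1 library per mouse and 3 mice per group. The control group were db/m littermates, which carry 1 mutated copy of the leptin receptor gene and are not diabetic. They had a rosiglitazone dose of 0 over the 8 weeks from 7 weeks of age. The paper describes gavage with the vehicle for db/db mice only. The dbdb group carried the mutation on both copies, had type 2 diabetes and received the vehicle over the same weeks. The dbR group had the genotype of the dbdb group and received 20 mg/kg/day of rosiglitazone, which activates PPARγ, by gavage from 7 to 15 weeks. The level of a gene is given as FPKM, a fragment count scaled to transcript length and library depth, summed over the mRNA transcripts of the gene, so levels of different genes can be compared per length. Depth was similar across libraries: estimated from the steps between low values, it lay between 0.914 (dbR replicate 3) and 1.14 (dbR replicate 1) times that of control replicate 1. The main transcript of each of the 28 genes rested on at least 133 estimated fragments in every library, the lowest being that of Tm7sf2. Markers of the proximal tubule, which makes up most of the cortex, were abundant in every library, and their 10 genes summed to between 3441 and 4220 FPKM.

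Cholesterol is made from acetyl-CoA through mevalonate and isoprenoid units, which are joined to squalene, closed to lanosterol and then modified step by step to cholesterol. When membrane sterol is low, the transcription factor encoded by Srebf2 is escorted by SCAP from the endoplasmic reticulum and activates the enzymes of this chain, while the INSIG proteins hold it back when sterol is plentiful. When sterols with added oxygen build up, LXR activates exporters such as ABCA1 and ABCG1, and tubule cells of the kidney both synthesise cholesterol and take it up.

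The comparison of the dbdb group with the control group addressed which genes differ between db/db mice on vehicle and their db/m littermates. Loss of the leptin receptor, higher body weight, diabetes and kidney disease come together in db/db mice and cannot be told apart here. Of the 28 genes, 7 were downregulated in the dbdb group and 0 were upregulated by limma at an adjusted p under 0.05. The 7 genes are 25% of the 28, where 13.4% of all tested genes were lower and 13.1% were higher. The genes were Cyp51, Idi1, Sc5d, Nsdhl, Mvd, Dhcr7 and Nr1h3, of which 6 encode enzymes of the synthesis. Fold changes are on the scale of log2(FPKM + 0.1), which understates changes of low genes. The median log2 fold change of the 28 genes was -0.09, and that of all tested genes was -0.003. In 10 of the 28 genes the 3 dbdb libraries did not overlap the 3 control libraries, which is 35.7%, and 42.4% of all tested genes showed such a gap. The cortex is a mixture of cells, and fewer cells of a type cannot be told apart from less RNA per cell.

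**Figure D1:**
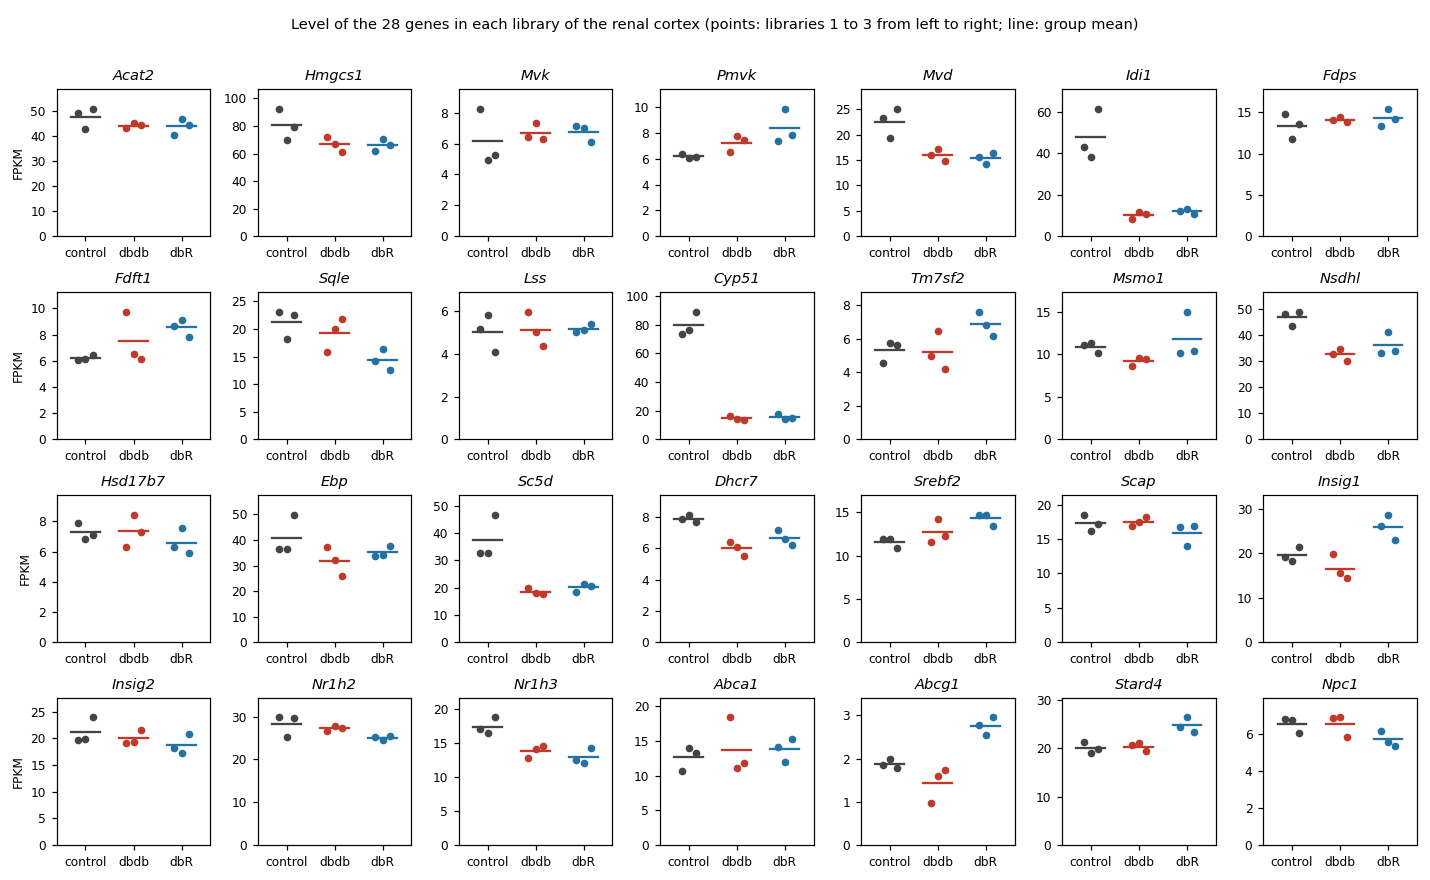
FPKM (vertical axes, from 0, a separate scale for each gene) of the 28 genes in the 3 control, 3 dbdb and 3 dbR libraries; each point is 1 library and each line is the mean of a group. The dbdb and dbR libraries of Cyp51 lie between 13.3 and 17.6 FPKM, and its control libraries between 73.1 and 89.1 FPKM.

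Among the 7 enzymes from acetyl-CoA to farnesyl diphosphate, 2 fell in the dbdb group. Idi1 (ENSMUSG00000058258, chr13:8885501-8892451 on the plus strand of GRCm38) encodes the isomerase that turns isopentenyl diphosphate into dimethylallyl diphosphate. Its level was 43.2, 38.3 and 61.6 FPKM in the control libraries, 8.35, 11.6 and 10.97 FPKM in the dbdb libraries and 12.0, 13.3 and 10.5 FPKM in the dbR libraries. Every control library lay far above every library of db/db mice, and the dbR libraries lay among or just above the dbdb libraries. The mean fell from 47.7 ± 12.3 (SD, n = 3) to 10.3 ± 1.74 FPKM, a log2 fold change of -2.18 with a 95% interval from -2.58 to -1.78 (limma, adjusted p = 4.25e-05). A single transcript carried 97.1% of the Idi1 level in the control group and 98.5% in the dbdb group.

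Mvd, which encodes the decarboxylase that makes isopentenyl diphosphate, was at 23.3, 19.3 and 25.1 FPKM in the control libraries and at 15.97, 17.3 and 14.8 FPKM in the dbdb libraries. The groups did not overlap, with control replicate 2 closest to the dbdb group. The log2 fold change of Mvd was -0.49 (SE 0.10, limma, adjusted p = 0.00718). Hmgcs1, the synthase that condenses acetyl units before mevalonate, had the highest mean of the 28 genes in each of the 3 groups. It was at 92.6, 69.8 and 79.4 FPKM in the control libraries and at 72.1, 66.9 and 61.3 FPKM in the dbdb libraries, which overlap. Its log2 fold change of -0.27 had an unadjusted p of 0.0278 and did not pass the test (limma, adjusted p = 0.0842), and without control replicate 2 it passed (adjusted p = 0.0288, in a range from 0.0288 to 0.374 over the alternatives). Acat2, Mvk, Pmvk and Fdps, which encode the thiolase, the 2 kinases of mevalonate and the farnesyl diphosphate synthase, did not pass the test, and without control replicate 1 Mvk was called as higher. Acat2 had group means of 47.5 ± 4.29 and 44.1 ± 0.992 FPKM, and the means of Mvk, Pmvk and Fdps lay between 6.16 and 14.1 FPKM in these groups.

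From squalene to cholesterol, 4 of 11 enzymes fell in the dbdb group. Cyp51 (ENSMUSG00000001467, chr5:4081145-4104746 on the minus strand of GRCm38) encodes lanosterol 14-alpha demethylase, the cytochrome P450 of the synthesis. Its level was 73.1, 76.2 and 89.1 FPKM in the control libraries, 16.3, 14.4 and 13.3 FPKM in the dbdb libraries and 17.6, 14.0 and 14.9 FPKM in the dbR libraries. The control libraries stood apart from the other 6, and the dbdb and dbR libraries were intermixed. The mean fell from 79.5 ± 8.48 to 14.7 ± 1.54 FPKM (SD, n = 3), so that the control mean was 5.41 times the dbdb mean. The log2 fold change was -2.43 with a 95% interval from -2.67 to -2.18 (limma, adjusted p = 4.06e-06), and Cyp51 ranked 3 by p among the 14537 tested genes. By level among the 28 genes, Cyp51 ranked 2 in the control group and 13 in the dbdb group, and Idi1 ranked 3 and 18.

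Sc5d encodes the desaturase that acts late in the chain, just before Dhcr7. Its level was 32.9, 32.8 and 46.9 FPKM in the control libraries and 20.0, 18.2 and 17.6 FPKM in the dbdb libraries. The groups did not overlap, and control replicate 3 was the highest, as it was for Cyp51, Idi1, Mvd and Nsdhl. The log2 fold change of Sc5d was -0.99 (SE 0.13, limma, adjusted p = 0.000524). Nsdhl, a dehydrogenase that takes part in removing the methyl groups at carbon C4, was at 48.2, 43.5 and 49.0 FPKM in the control libraries and at 32.9, 34.8 and 29.9 FPKM in the dbdb libraries. All of its dbdb libraries lay below all of its control libraries, with a log2 fold change of -0.53 (SE 0.09, limma, adjusted p = 0.0029). Dhcr7, the reductase of the last step of one branch, was at 7.86, 8.16 and 7.69 FPKM in the control libraries and at 6.40, 6.11 and 5.52 FPKM in the dbdb libraries. These also did not overlap, and the log2 fold change was -0.39 (SE 0.08, limma, adjusted p = 0.00735).

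The other 7 enzymes after farnesyl diphosphate did not pass the test. Ebp, the sterol isomerase, was at 36.3, 36.5 and 50.0 FPKM in the control libraries and at 37.3, 32.0 and 25.9 FPKM in the dbdb libraries. These overlap through dbdb replicate 1, and the log2 fold change of -0.37 had an unadjusted p of 0.0323 (limma, adjusted p = 0.094; 0.0413 without dbdb replicate 1, and from 0.0413 to 0.291 over the alternatives). Fdft1, Sqle and Lss encode squalene synthase, squalene epoxidase and the cyclase that forms lanosterol, the substrate of Cyp51. Their control and dbdb means were 6.21 and 7.47 FPKM for Fdft1, 21.3 and 19.2 FPKM for Sqle and 5.05 and 5.13 FPKM for Lss. Fdft1 was at 9.76 FPKM in dbdb replicate 1 and at 6.51 and 6.14 FPKM in the other dbdb libraries. The reductase Tm7sf2, the methyl oxidase Msmo1 and the ketosteroid reductase Hsd17b7 follow Cyp51 in the chain. Their control and dbdb means were 5.31 and 5.21 FPKM for Tm7sf2, 10.9 and 9.24 FPKM for Msmo1 and 7.29 and 7.35 FPKM for Hsd17b7. Without dbR replicate 2 Msmo1 was called as lower in dbdb vs. control.

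The 18 synthesis enzymes together summed to 494, 444 and 541 FPKM in the control libraries, 331, 332 and 304 FPKM in the dbdb libraries and 319, 355 and 327 FPKM in the dbR libraries. The control sums lay above all others. Without Cyp51 and Idi1, the other 16 enzymes summed to 377, 330 and 390 FPKM in the control libraries, 306, 306 and 280 FPKM in the dbdb libraries and 290, 327 and 302 FPKM in the dbR libraries. The gap to the dbdb libraries was smaller there, and control replicate 2 came close to dbR replicate 2. These sums are descriptions, since an exact test of 3 libraries against 3 cannot give a p under 0.10.

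The calls of Cyp51, Idi1, Sc5d, Nsdhl and Mvd in dbdb vs. control held in all 20 alternative settings. With mitochondrial genes left out and the libraries scaled to equal sums, the median of all tested genes moved to 0.15 and 78.3% of the called genes were higher, compared to 49.5% without this scaling. Under it Cyp51 had a log2 fold change of -2.27 and Idi1 one of -2.02, while Dhcr7 (adjusted p = 0.107) and Nr1h3 (adjusted p = 0.162) were no longer called and Pmvk and Fdps were called as higher.

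None of the 4 sterol sensors was called in dbdb vs. control by limma, and 0 had an unadjusted p under 0.05. Srebf2 was at 11.9, 11.9 and 10.9 FPKM in the control libraries and at 11.6, 14.2 and 12.3 FPKM in the dbdb libraries. Scap had means of 17.3 and 17.5 FPKM, and Insig2 of 21.2 and 20.0 FPKM. Insig1, itself a target of the factor it holds back, was at 19.1, 18.4 and 21.4 FPKM in the control libraries and at 19.9, 15.5 and 14.3 FPKM in the dbdb libraries. Groups overlapped for each of the 4 genes, and without dbdb replicate 1 Insig1 was called as lower.

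Of the liver X receptors, Nr1h3, which encodes LXRα, fell, and Nr1h2, which encodes LXRβ, was not called. Nr1h3 was at 17.1, 16.5 and 18.8 FPKM in the control libraries and at 12.9, 14.1 and 14.6 FPKM in the dbdb libraries. These did not overlap, and the log2 fold change was -0.33 (SE 0.09, limma, adjusted p = 0.0186). The call of Nr1h3 was lost without control replicate 3 (adjusted p = 0.0666), without dbdb replicate 1 (adjusted p = 0.062) and with its most abundant transcript in place of the sum (adjusted p = 0.052), and over all alternatives its adjusted p lay between 0.0119 and 0.162. Nr1h2 was at 28.3 ± 2.63 FPKM in the control group and at 27.3 ± 0.556 FPKM in the dbdb group. The exporter Abca1 was at 10.7, 14.0 and 13.2 FPKM in the control libraries and at 18.3, 11.03 and 11.7 FPKM in the dbdb libraries, so dbdb replicate 1 alone lay above the control range. The exporter Abcg1 was the least abundant of the 28 genes, with 1.87 ± 0.110 FPKM in the control group and 1.44 ± 0.404 FPKM in the dbdb group. Stard4, which carries cholesterol between membranes, and Npc1, which releases it from lysosomes, had means of 20.1 and 20.4 FPKM and of 6.54 and 6.51 FPKM.

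The comparison of the dbR group with the dbdb group addressed what rosiglitazone changed in diabetic mice. By limma, 1 of the 28 genes was upregulated, Insig1, and 0 were downregulated, where 0.564% of all tested genes were higher and 0.179% were lower. Insig1 (ENSMUSG00000045294, chr5:28071363-28078662 on the plus strand of GRCm38) was at 19.9, 15.5 and 14.3 FPKM in the dbdb libraries and at 26.1, 28.8 and 23.1 FPKM in the dbR libraries. Every dbR library lay above every dbdb library and also above every control library. The mean rose from 16.6 ± 2.92 to 26.0 ± 2.84 FPKM (SD, n = 3), a log2 fold change of 0.65 with a 95% interval from 0.38 to 0.93 (limma, adjusted p = 0.0498). By level, Insig1 ranked 11 of the 28 genes in the dbdb group and 5 in the dbR group. The call rested close to the threshold and was lost in 14 of 20 alternative settings, with adjusted p between 0.035 and 0.2, the highest being that without dbR replicate 2. Leaving out any library other than dbdb replicate 1 ended it, with 0.0561 without control replicate 3 as the lowest adjusted p of these.

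In dbR vs. dbdb another 5 genes were below 0.05 before the adjustment of p and not after it. With Insig1 these are 6 of the 28 genes, where 2541 of the 14537 tested genes were below 0.05 before the adjustment. Abcg1 was at 0.983, 1.61 and 1.74 FPKM in the dbdb libraries and at 2.77, 2.55 and 2.95 FPKM in the dbR libraries. The groups did not overlap, and the control libraries, between 1.77 and 1.99 FPKM, lay between them. The log2 fold change of Abcg1 was 0.92 with a 95% interval from 0.52 to 1.33 (limma, adjusted p = 0.0519, and between 0.0381 and 0.186 in the alternatives). It passed in 5 of 20 alternatives, among them that without dbdb replicate 3 (adjusted p = 0.0381). Stard4 was at 20.6, 21.1 and 19.5 FPKM in the dbdb libraries and at 24.5, 26.4 and 23.3 FPKM in the dbR libraries, without overlap (log2 fold change 0.28, limma, adjusted p = 0.0864). Sqle was at 15.8, 20.1 and 21.8 FPKM in the dbdb libraries and at 14.3, 16.4 and 12.6 FPKM in the dbR libraries, which overlap (log2 fold change -0.41, adjusted p = 0.174). Tm7sf2 and Msmo1 had log2 fold changes of 0.41 (limma, adjusted p = 0.215) and 0.34 (adjusted p = 0.233), and dbR replicate 2 was the highest library of Msmo1 with 15.1 FPKM.

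In the dbR group the 7 genes that fell in the dbdb group were not called against the dbdb group, and their dbR libraries overlapped the dbdb libraries. The log2 fold change in dbR vs. dbdb was 0.08 for Cyp51, with a 95% interval from -0.17 to 0.32, and 0.22 for Idi1, with an interval from -0.18 to 0.62. For Sc5d it was 0.11 (interval -0.18 to 0.40), for Nsdhl 0.14 (-0.07 to 0.35) and for Dhcr7 0.15 (-0.04 to 0.33). For Mvd and Nr1h3 it was -0.05 (-0.28 to 0.18) and -0.10 (-0.29 to 0.09). The upper ends of the intervals of Cyp51 and Idi1 lie below the size of their fall from the control group. In 6 of the 28 genes the dbR and dbdb libraries did not overlap, which is 21.4%, compared to 22.7% of all tested genes. These were Insig1, Abcg1, Stard4 and Msmo1, higher in dbR, and Scap and Nr1h2, lower in dbR.

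**Figure D2:**
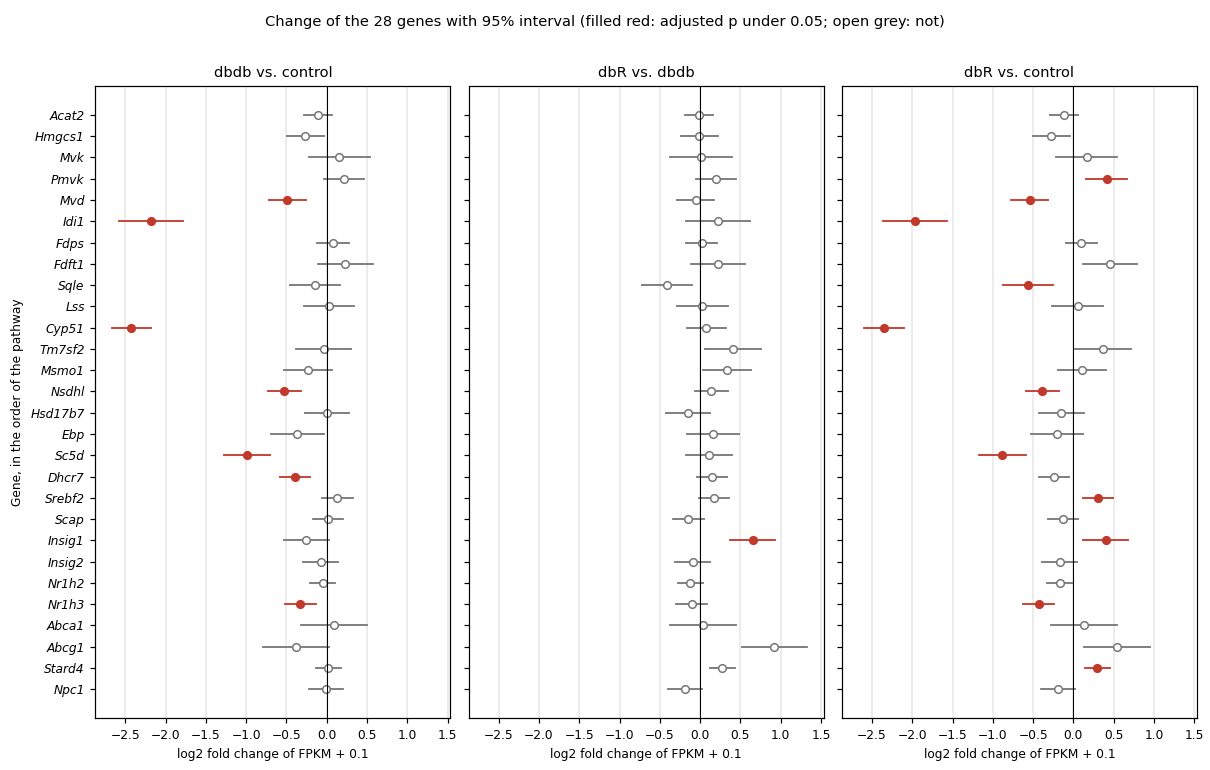
Log2 fold change of FPKM + 0.1 (horizontal axis) with its 95% interval from limma for the 28 genes (vertical axis, ordered by their place in the pathway) in dbdb vs. control, dbR vs. dbdb and dbR vs. control; filled red points have an adjusted p under 0.05. Cyp51 at -2.43 and Idi1 at -2.18 lie far to the left in dbdb vs. control and again in dbR vs. control, and Insig1 is the filled point in dbR vs. dbdb.

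The dbR group was also set against the control group. By limma, 4 of the 28 genes were upregulated and 7 were downregulated, which is 14.3% and 25%, where 12.3% of all tested genes were higher and 11.8% were lower. The share of higher genes is near that of all genes. Groups did not overlap in 15 of the 28 genes, which is 53.6%, compared to 41.9% of all tested genes. This comparison shares its control libraries with dbdb vs. control and its dbR libraries with dbR vs. dbdb, so the 3 are not independent. Cyp51 had a log2 fold change of -2.35 in dbR vs. control and -2.43 in dbdb vs. control, and Idi1 one of -1.96 and -2.18. For Sc5d these values were -0.88 and -0.99, for Mvd -0.54 and -0.49, for Nsdhl -0.39 and -0.53, and for Nr1h3 -0.43 and -0.33. Dhcr7 was not called in dbR vs. control (log2 fold change -0.24, limma, adjusted p = 0.0578).

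Sqle, which encodes the epoxidase that makes the substrate of Lss, fell in the dbR group compared to the control group, from 21.3 ± 2.68 to 14.4 ± 1.88 FPKM (log2 fold change -0.56, limma, adjusted p = 0.0167). The 4 genes that rose were Pmvk, Srebf2, Insig1 and Stard4. Pmvk was at 6.39, 6.06 and 6.16 FPKM in the control libraries and at 7.36, 9.90 and 7.83 FPKM in the dbR libraries, with dbR replicate 2 the highest (log2 fold change 0.41, limma, adjusted p = 0.0245). Srebf2 was at 14.7, 14.8 and 13.5 FPKM in the dbR libraries, all above the control libraries (log2 fold change 0.31, limma, adjusted p = 0.026). Insig1 and Stard4 had log2 fold changes of 0.40 (limma, adjusted p = 0.041) and 0.30 (adjusted p = 0.0119). Fdft1 was at 6.03, 6.15 and 6.45 FPKM in the control libraries and at 8.69, 9.15 and 7.81 FPKM in the dbR libraries, and it did not pass the test (log2 fold change 0.45, limma, adjusted p = 0.0549).

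Of these 11 calls, those of Cyp51, Idi1, Sc5d, Mvd and Stard4 held in all 20 alternatives, and 7 genes were called without control replicate 3. Without that library Pmvk, Sqle, Nsdhl and Srebf2 were lost, with adjusted p of 0.0639, 0.0558, 0.0507 and 0.0865. Pmvk was also lost without control replicate 2 (0.068) or dbR replicate 2 (0.0644), Sqle without control replicate 1 (0.0564) or dbR replicate 3 (0.0603), Nsdhl without dbR replicate 1 (0.055) or replicate 3 (0.0527), and Srebf2 without dbR replicate 1 (0.0786) or replicate 2 (0.0797). Insig1 was lost in 9 of 20 alternatives, with adjusted p from 0.0102 to 0.134 over all of them. These include no filter (0.0607), no variance trend (0.0723) and the most abundant transcript of each gene (0.0508). Insig1 has 1 transcript here, so its own values did not change in that last fit. The call was also lost without control replicate 1 (0.0981) or replicate 2 (0.118), dbdb replicate 2 (0.0536), or dbR replicate 1 (0.1) or replicate 2 (0.134). Nr1h3 was lost with its most abundant transcript alone (0.0942). Among genes not called, Fdft1 passed in 6 of 20 alternatives (adjusted p from 0.00447 without dbdb replicate 1 to 0.15), Abcg1 in 6 (from 0.00752 without dbdb replicate 1 to 0.148) and Dhcr7 in 3 (from 0.0472 with the filter at 1 FPKM to 0.328). Hmgcs1 and Nr1h2 passed without control replicate 2 (0.0274 and 0.0167), and Tm7sf2 with its most abundant transcript alone (0.0226). Lss was called as higher in that same setting, and Mvk without control replicate 1.

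Promoter sequences from RefSeq (GRCm38.p6, 250 bases before to 50 after a start of transcription) were matched by symbol for 22 of the 28 genes. Fdps, Fdft1, Sqle, Abcg1, Stard4 and Npc1 were not among the matches. The letters CCAAT, the box read by the factor NF-Y that works together with the SREBP factors, were present on either strand in 17 of the 22 genes, or 77.3%, and in 41.1% of the 27025 genes with a promoter in the table. Of the 7 genes that fell in the dbdb group, 6 had a CCAAT box in this window and Nr1h3 had none. Genes not called in dbdb vs. control also had the box, among them Mvk, Lss, Hsd17b7, Srebf2 and Insig2. A link of the box to the falls was not tested. The core TCACNCCAC of the sterol regulatory element was present in 1 of the 22 genes, Hmgcs1, and in 1.44% of all genes. A repeat of AGGTCA or AGTTCA with 4 letters between, as read by LXR, was present in 0 of the 22 genes and in 0.0296% of all genes. A match is a string of letters and no measured binding, and no match says only that the letters are not in this window.

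The windows of Cyp51, Idi1 and Sc5d are shown because these genes had the largest falls and share the box, and that of Hmgcs1 because it alone had the core. Each is written 5′ to 3′ on the strand of its gene, with the motif in capitals, so that ATTGG is a CCAAT box on the other strand. Positions are counted from the RefSeq start. The box of Cyp51 begins 29 bases before the start (chr5:4104712-4104736, minus strand), within an annotated exon of Cyp51. The boxes of Idi1 begin 45 and 14 bases before the start (chr13:8885551-8885575 and chr13:8885582-8885606, plus strand), also within an annotated exon. The box of Sc5d begins 24 bases before the start (chr9:42264310-42264334, minus strand), outside any annotated gene. The core of Hmgcs1 begins 137 bases before the start (chr13:119690204-119690232, plus strand), outside any annotated gene.
Cyp51: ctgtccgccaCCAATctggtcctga
Idi1, distal: cctccagctgATTGGcgagcccggg
Idi1, proximal: ccaaggtgccATTGGctggcgaccg
Sc5d: ccggctgctgATTGGccggctgcct
Hmgcs1: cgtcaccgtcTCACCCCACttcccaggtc

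Other genes of the pathway were grouped in lists, and the shares of called genes stand beside 13.1% of all tested genes higher and 13.4% lower in the dbdb group. Of 11 genes that process or assist the SREBP factors, 3 fell (27.3%) and 0 rose. Erlin1 and Erlin2, which encode partner proteins of sterol sensing in the endoplasmic reticulum, had log2 fold changes of -0.62 (limma, adjusted p = 0.000817) and -0.34 (adjusted p = 0.00282). Nfya, a subunit of NF-Y, was at 9.70, 9.18 and 8.86 FPKM in the control libraries and at 6.73, 7.21 and 7.20 FPKM in the dbdb libraries (log2 fold change -0.39, limma, adjusted p = 0.00386). The calls of Erlin2 (0.0647) and Nfya (0.0741) were lost with mitochondrial genes left out, and that of Nfya with its most abundant transcript alone (0.27). Of 11 genes that use isoprenoids outside the sterol chain, 1 fell (9.09%, a smaller share than of all genes), Pdss1 of coenzyme Q synthesis (log2 fold change -0.61, limma, adjusted p = 0.00246). None of these 22 genes was called in dbR vs. dbdb by limma, where 0.743% of all tested genes were called. Of the 22 genes 0 had an unadjusted p under 0.05, compared to 2541 of the 14537 tested genes.

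Of 18 tested genes of sterol transport, storage and oxysterol metabolism, 4 rose (22.2%) and 5 fell (27.8%) in the dbdb group, where 13.1% of all tested genes rose and 13.4% fell. Cyp7b1, the oxysterol 7-alpha hydroxylase, was at 57.5, 44.4 and 81.1 FPKM in the control libraries, 3.45, 2.24 and 4.05 FPKM in the dbdb libraries and 3.18, 2.69 and 2.87 FPKM in the dbR libraries. The control libraries stood far above the other 6, and in dbdb vs. control it had a log2 fold change of -4.19 (limma, adjusted p = 7.55e-06). Nceh1 and Soat1, which split and form cholesterol esters, fell by 0.65 and 0.61 on the log2 scale (limma, adjusted p = 0.000174 and 0.0131). Lrp1, an endocytic receptor, and Abca7, a lipid transporter, rose by 0.52 and 0.62 (limma, adjusted p = 0.00811 and 0.00159). None of the 18 genes was called in dbR vs. dbdb by limma, where 0.743% of all tested genes were called. An unadjusted p under 0.05 was found for 6 of the 18 genes and for 2541 of the 14537 tested genes. Of these 6 genes, 4 were higher and 2 were lower in the dbR group. Lrp1 was among the higher genes, with means of 8.26 FPKM in the dbdb group and 12.3 FPKM in the dbR group. Its libraries did not overlap (log2 fold change 0.57, limma, adjusted p = 0.0517). In dbR vs. control Lrp1 had a log2 fold change of 1.09 (limma, adjusted p = 0.000175).

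Of 10 partners and targets of LXR, 4 rose (40%) and 3 fell (30%) in the dbdb group. Rxrg, a partner receptor of low level, rose from a range of 0.183 to 0.250 FPKM in the control libraries to 0.558 to 0.886 FPKM in the dbdb libraries (log2 fold change 1.41, limma, adjusted p = 0.000933). The LXR targets Mylip, Pltp and Lpcat3 had log2 fold changes of 0.66 (limma, adjusted p = 0.0264), -0.67 (adjusted p = 0.00933) and -0.34 (adjusted p = 0.00355), so they did not move in 1 direction. The call of Mylip was lost without dbdb replicate 1 (0.0741) or replicate 3 (0.0669), and also in the fit to 6 libraries (0.0568) or without a trend (0.0513). That of Lpcat3 was lost with mitochondrial genes left out (0.0783). In dbR vs. dbdb 0 of the 10 genes were called by limma, compared to 0.743% of all tested genes. An unadjusted p under 0.05 was found for 2 of the 10 genes and for 2541 of the 14537 tested genes.

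Of 11 genes of fatty acid synthesis, 1 rose (9.09%) and 5 fell (45.5%) in the dbdb group. Me1, which supplies NADPH, was at 169, 169 and 187 FPKM in the control libraries and at 74.9, 85.3 and 76.3 FPKM in the dbdb libraries (log2 fold change -1.15, limma, adjusted p = 1.03e-05). The desaturases moved apart, with Scd1 at -0.96 (limma, adjusted p = 0.0105) and Scd2 at 0.84 (adjusted p = 0.00281). In dbR vs. dbdb 0.564% of all tested genes were higher and 0.179% were lower. An unadjusted p under 0.05 was found for 4 of the 11 genes, all 4 higher, and for 2541 of the 14537 tested genes, 1371 of them higher. In 5 of the 11 genes (45.5%) every dbR library lay above every dbdb library, as in 10.7% of all tested genes. Srebf1, which encodes the SREBP factors of fatty acid synthesis, was the 1 gene of these lists that was called in that comparison. It was at 7.12, 8.37 and 8.02 FPKM in the dbdb libraries and at 13.1, 12.1 and 11.1 FPKM in the dbR libraries, without overlap (log2 fold change 0.62, limma, adjusted p = 0.0331). The call of Srebf1 was lost in 12 of 20 alternatives, with an adjusted p of 0.153 without dbR replicate 2, 0.0681 and 0.0723 without dbdb replicates 1 and 2, 0.0721 and 0.0647 without dbR replicates 1 and 3 and 0.0524 without control replicate 2.

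Markers of other cell types moved between the groups, and their part in the results above was not tested. Of all tested genes, 13.1% rose and 13.4% fell in the dbdb group, and 0.564% rose in dbR vs. dbdb. Of 7 macrophage markers, 4 fell in the dbdb group (57.1%) and 0 rose, and their summed level was 76.7, 60.7 and 69.1 FPKM in the control libraries, 30.4, 37.9 and 52.2 FPKM in the dbdb libraries and 42.7, 51.4 and 56.6 FPKM in the dbR libraries. C1qa was the most abundant of them over the 9 libraries together, with C1qb or Lyz2 above it in some, and Csf1r had the largest fall (log2 fold change -1.37, limma, adjusted p = 0.000176). Of 3 tested lymphocyte markers, 2 fell (66.7%), with Ptprc the most abundant, and all 6 of the list summed to 5.74, 4.88 and 4.54 FPKM in the control libraries and to 1.48, 1.55 and 2.19 FPKM in the dbdb libraries. Of 6 endothelial markers, 4 fell in the dbdb group (66.7%). Without control replicate 2 the calls of Cdh5 (0.11) and Kdr (0.0511) were lost, and that of Cdh5 was lost in 11 of 20 alternatives. Kdr was also lost with mitochondrial genes left out (0.149), and Pecam1 with its most abundant transcript alone (0.44). Emcn, the most abundant, and Kdr rose in dbR vs. dbdb (log2 fold changes 0.66 and 0.52, limma, adjusted p = 0.0205 and 0.0309). The endothelial sums were 112, 124 and 113 FPKM in the control libraries, 91.8, 93.4 and 85.0 FPKM in the dbdb libraries and 117, 136 and 122 FPKM in the dbR libraries. The call of Emcn was lost in 4 of 20 alternatives, without a variance trend (0.0595), dbdb replicate 2 (0.0516), dbR replicate 2 (0.0688) or dbR replicate 3 (0.0604). That of Kdr was lost in 8 of 20, with no filter (0.0616), mitochondrial genes left out (0.0527), the 6 libraries alone (0.053) or no variance trend (0.074), and without dbdb replicate 1 (0.0681) or dbR replicates 1 (0.0601), 2 (0.151) or 3 (0.0797).

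Of 6 markers of thick limb and distal tubule, 3 rose in the dbdb group (50%), and of 6 markers of the collecting duct, 4 rose (66.7%), where 13.1% of all tested genes rose and 13.4% fell. The sums of the first list, with Umod the most abundant in all libraries but dbdb replicate 2, were 639, 538 and 555 FPKM in the control libraries, 754, 785 and 1056 FPKM in the dbdb libraries and 873, 896 and 809 FPKM in the dbR libraries. Those of the collecting duct, with Aqp3 the most abundant in the control libraries and Aqp2 in the others, were 144, 122 and 145 FPKM in the control libraries, 277, 184 and 235 FPKM in the dbdb libraries and 209, 217 and 228 FPKM in the dbR libraries. In dbR vs. dbdb, where 0.564% of all tested genes rose, 2 of the 6 collecting duct markers rose (33.3%). These were Atp6v1g3 and Fxyd4 (log2 fold changes 0.52 and 0.64, limma, adjusted p = 0.0251 and 0.0433). Their calls were lost in 7 and 12 of 20 alternatives, with 0.12 and 0.164 without dbR replicate 2. The log2 fold change was above 0 for 3 of the 6 markers and below 0 for 3, with a median of -0.04 and Aqp2 at -0.40. In the proximal tubule list, led by Slc34a1, 2 of 10 genes rose (20%) and 2 fell (20%) in the dbdb group, and the sums were 4036, 3959 and 3761 FPKM in the control libraries and 3821, 4220 and 3441 FPKM in the dbdb libraries. Slc5a2, which rose, lost its call in 4 of 20 alternatives. These were without control replicate 2 (0.0744) or 3 (0.0681) or dbdb replicate 1 (0.0677) or 2 (0.0847). Of 5 podocyte markers, 2 rose (40%), and the sums, led by Podxl, lay between 73.4 and 96.6 FPKM in all 9 libraries. Of 4 fibroblast markers, led by Dcn, 1 fell (25%), and the sums were 32.2, 20.2 and 21.3 FPKM in the control libraries, 13.8, 15.6 and 21.1 FPKM in the dbdb libraries and 23.6, 31.3 and 23.8 FPKM in the dbR libraries. The fibroblast and pericyte marker Pdgfrb rose in dbR vs. dbdb (log2 fold change 0.69, limma, adjusted p = 0.0234), a call that was lost in 7 of 20 alternatives, with 0.109 without dbR replicate 2.

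Markers of the adrenal cortex, which lies beside the kidney and makes much cholesterol, were low or at 0. Cyp11b1 and Cyp11b2 were listed at 0 in all 9 libraries, Cyp11a1 reached at most 0.0162 FPKM, and the 7 markers summed to between 0.923 and 2.44 FPKM, with Star the most abundant. Of its 3 tested genes 1 rose in the dbdb group, Hsd3b1, which was at 0.195, 0.153 and 0.167 FPKM in the control libraries and at 0.857, 0.936 and 0.767 FPKM in the dbdb libraries (log2 fold change 1.81, limma, adjusted p = 0.000188). The 6 adipocyte markers summed to 2.33, 0.351 and 3.01 FPKM in the control libraries, to at most 0.1001 FPKM in the dbdb libraries and to 0.701, 0.0767 and 0.243 FPKM in the dbR libraries. Cfd was the most abundant of them in the control group by mean and was listed at 0 in all dbR libraries, Adipoq was listed at 0 in all dbdb libraries, and control replicate 2 was far lower than the other control libraries. The call of Cfd (log2 fold change -2.96, limma, adjusted p = 0.0138) was lost without control replicate 1 (0.0502) or replicate 3 (0.0518). Control replicate 3, with the highest adipocyte sum, also had the highest Cyp51 and Idi1, 89.1 and 61.6 FPKM, and control replicates 1 and 2 had 73.1 and 76.2 FPKM of Cyp51 and 43.2 and 38.3 FPKM of Idi1. Of 5 erythroid markers 0 were called by limma, 1 had an unadjusted p under 0.05 in dbdb vs. control, and control replicate 1 had the highest sum of the 9 libraries, 104 FPKM, with Hbb-bs the most abundant.

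Some of the 28 genes share sequence with others. Acat2 has the paralog Acat3, and 40.7% of the 75-base stretches of its main transcript also occur in Acat3. Acat3 was at 19.5, 18.8 and 23.0 FPKM in the control libraries and at 27.1, 25.7 and 24.3 FPKM in the dbdb libraries (log2 fold change 0.33, limma, adjusted p = 0.0204), so the split of reads between the pair is uncertain. The call of Acat3 was lost without control replicate 1 (0.0649), control replicate 2 (0.0705), dbdb replicate 1 (0.0648) or dbdb replicate 2 (0.0563). Idi1 shares none of its 2953 such stretches with its paralog Idi2, which reached at most 0.106 FPKM in any library. In the GENCODE annotation of GRCm38, all of Mvd lies within Gm20388 on the opposite strand, and parts of Cyp51 (166 bases with Akap9), Idi1 (323 with Gm48574), Hmgcs1 (6190 with Gm48342), Lss (11268 with 4930483K19Rik), Fdft1 (774 with Ctsb), Npc1 (4908 with Gm15956 and 967 with Rmc1), Scap (3383 with 5830462I19Rik), Insig2 (3058 with Gm37174) and Nr1h3 (106 with Gm23390) also overlap genes on the opposite strand. On the same strand Fdps overlaps Gm43738, Tm7sf2 overlaps Vps51, Nr1h3 overlaps Gm13783, Srebf2 overlaps Gm49502 and Abcg1 overlaps Gm25447, so their levels are uncertain to the extent that reads were shared. The libraries keep the strand, and whether counting used it is not given in the sources used here.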

How the data were processed

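Per the labels and methods, the authors depleted ribosomal RNA, made strand-specific libraries, aligned paired reads to GRCm38.p2 with TopHat 2.0.9 and used Cufflinks 2.1.1 to give the FPKM of each transcript, and these FPKM values were deposited for mRNAs in 9 libraries; lncRNA values were not used here. FPKM was summed over the 50660 mRNA transcripts to 21950 genes. Genes reaching 0.1 FPKM on average were fitted as log2(FPKM + 0.1) with limma 3.58.1 (R 4.3.3) in 1 model of 3 groups with a variance trend. P-values are two-sided with Benjamini-Hochberg adjustment over all genes tested in a contrast, and a gene was called at an adjusted p under 0.05. The fit was tested on simulated data. All 28 genes are named, and of every other list those called in at least 1 contrast, at most 6 by absolute fold change, with markers of adrenal cortex and adipocyte and the paralogs. The members and lists were chosen with earlier results of these data known. Alternatives covered the pseudocount, filter, scaling, samples in the fit, replicate block, variance trend, transcript choice and each library left out.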

Additional observations from a re-analysis of the deposited data

How the results depend on the processing

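Alternatives were tallied for 137 gene results: those of the 28 genes with an unadjusted p under 0.05, the 7 fallen genes in dbR vs. dbdb, and calls of named list genes. Over 20 alternatives these gave 2733 values, of which 2518 kept their direction and their side of the threshold, 185 lost their call, 26 gained one and 4 changed sign. Outside this tally Fdps, Pmvk, Mvk, Msmo1 and Insig1 gained a call in dbdb vs. control in some setting, and Mvk and Lss in dbR vs. control. In dbdb vs. control the count was 7 in every setting that kept all libraries, though not always of the same genes: with mitochondrial genes left out Fdps and Pmvk, as higher, took the place of Dhcr7 and Nr1h3, and with the most abundant transcript Ebp that of Nr1h3. It lay between 6 and 8 when 1 library was left out. In dbR vs. dbdb the 1 called gene became 2 with a pseudocount of 1, a filter at a mean of 1 FPKM, 75th percentile scaling or quantile normalization (Insig1 and Abcg1), and 0 with a pseudocount of 0.01, no filter, a fit to the 6 libraries of the contrast, no variance trend or the most abundant transcript; without 1 library it lay between 0 and 1. In dbR vs. control 11 genes were called, and between 7 and 14 without 1 library. The cause was not tested.

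The 4 sign changes of the tally concern small values of dbR vs. dbdb. Mvd had a log2 fold change of 0.0029 without dbdb replicate 2 and 0.0010 without dbR replicate 2 (range with 1 library left out -0.11 to 0.0029), Cyp51 one of -0.016 without dbR replicate 1 (range -0.016 to 0.16), and Nr1h3 one of 0.072 with its most abundant transcript. Over all tested genes, 108 were called in dbR vs. dbdb. This count was 31 without a filter, 166 with the filter at 1 FPKM, 203 with the 75th percentile, 234 with quantile normalization, 34 in the fit to 6 libraries, 18 without a trend and 49 with the most abundant transcript. It was between 2 and 141 without 1 library, with 2 without dbR replicate 2, 10 without dbR replicate 3, 31 and 36 without dbdb replicates 2 and 1, 70 without dbR replicate 1 and 72 without control replicate 2. The counts of the other contrasts stayed within 1.5 times. With mitochondrial genes left out, higher genes were 48.6% of the calls in dbR vs. dbdb, compared to 75.9%, and 70.5% in dbR vs. control, compared to 51.1%; the 75th percentile gave 62.3% there.

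Libraries with the same number did not deviate together (correlations from -0.175 to 0.0615), so no pairing by number was seen. With 3 libraries per group this check cannot exclude a pairing. With the replicate block, 7, 0 and 10 of the 28 genes were called in dbdb vs. control, dbR vs. dbdb and dbR vs. control, and 23 of all genes in dbR vs. dbdb.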
